A study of Ananas comosus with 9 samples.

Results

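Among 26730 gene models measured in pineapple peel, 87 had no KEGG ortholog in the deposited annotation and a transcript level that peaked at 90 days after flowering (DAF). They were chosen by their measured values. With library values at 0 counts set to 0 and 0.1 added to each mean, the 90 DAF mean had to be at least 5 FPKM (fragments per kilobase, scaled to library depth) and at least 4 times the mean at 60 DAF and the mean at 120 DAF. In addition the 60 DAF mean had to be under 5 FPKM or under 8 times the 120 DAF mean. Genes annotated as DNA-binding transcription factors or cysteine-type peptidases were left out. There were 18804 unassigned genes in that sense, and 157 genes of all kinds met the expression thresholds, of which 68 had a KEGG ortholog and 2 were left out by their GO term. The height of the 90 DAF peak is therefore a description of the choice, and no test is given for it.

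The study sequenced poly(A) RNA from peels of pineapple (Ananas comosus) at 60, 90 and 120 DAF, 3 libraries for each, to ask how anthocyanins relate to the change of peel colour in maturing fruit. The labels give no cultivar, treatment or number of fruits. Whether libraries of the same age stem from different fruits is not stated either, so p-values reflect the spread among these libraries alone, which may be technical. The peel of this multiple fruit is formed from the fused outer parts of many small fruits and their bracts. It is green while the fruit is young and loses chlorophyll as the fruit ripens. A KEGG ortholog ties a gene to a catalogued function shared between species, and a gene may lack one although its family is known. Among the families met here, subunits of the chloroplast NDH complex return electrons from ferredoxin to plastoquinone around photosystem I. Aquaporins are channels for water and small solutes, and thioredoxins are small proteins that reduce disulfide bonds in their targets.

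Library totals ran from 35038248 to 52937826 counts. The lists of marker genes differed in how far their sums moved with age and with single libraries. The summed level of 24 antenna protein genes of green tissue (18 of them tested) was 124, 252 and 175 FPKM at 60 DAF and 589.7, 2769 and 349 at 90 DAF. At 120 DAF it was 38.2, 36.8 and 56.1. Replicate 2 of 90 DAF was thus the highest library by far. The same library was highest for 48 photosystem genes, at 3119 FPKM against 407 to 687 in the other 90 DAF libraries. The 28 genes of cuticle formation, marking epidermis, summed to 198, 214 and 413 FPKM at 90 DAF, with replicate 3 highest, 182 to 209 FPKM at 60 DAF and 79.8 to 217 FPKM at 120 DAF. Genes of pigmented epidermis (9) summed to 209 to 447, 175 to 565 and 67.1 to 148 FPKM at the 3 ages in order. Lignification genes (8) summed to 643 to 779.7, 378 to 658 and 1051 to 1904, and bromelain class peptidases (104), protease genes of peel and flesh, to 7110.5 to 8456, 6027 to 9309 and 7004 to 9076. The list for dividing cells matched 0 genes. In bulk tissue, fewer cells of a type and less RNA per cell cannot be told apart.

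Most of the 87 genes were weakly expressed outside the peak. Their means ranged from 4.98 to 513 FPKM at 90 DAF with a median of 19.9, from 0 to 64.8 FPKM at 60 DAF with a median of 3.02, and from 0 to 67.8 FPKM at 120 DAF with a median of 1.28. At 90 DAF the mean exceeded 100 FPKM in 7 genes, lay between 10 and 100 in 54 and was under 10 in 26. The lowest, at 4.98 FPKM, belongs because the offset of 0.1 was added before the threshold was applied. All of them together took 0.203, 0.358 and 0.417% of counts in the libraries of 90 DAF, against 0.0369 to 0.0655% in those of 60 DAF and 0.0178 to 0.0370% in those of 120 DAF. The ratio of the 90 DAF mean to the larger of the other means had a median of 5.74 and ran from 4.18 to 107, and against 120 DAF alone the median ratio was 17.5. The 60 DAF mean was above the 120 DAF mean in 71 genes and below it in 15. These FPKM means are scaled to library depth alone. On that scale the median log2 fold change from 60 to 120 DAF over all genes tested was -0.29. The share of all genes tested with the 60 DAF mean above is not given here.

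**Figure D1:**
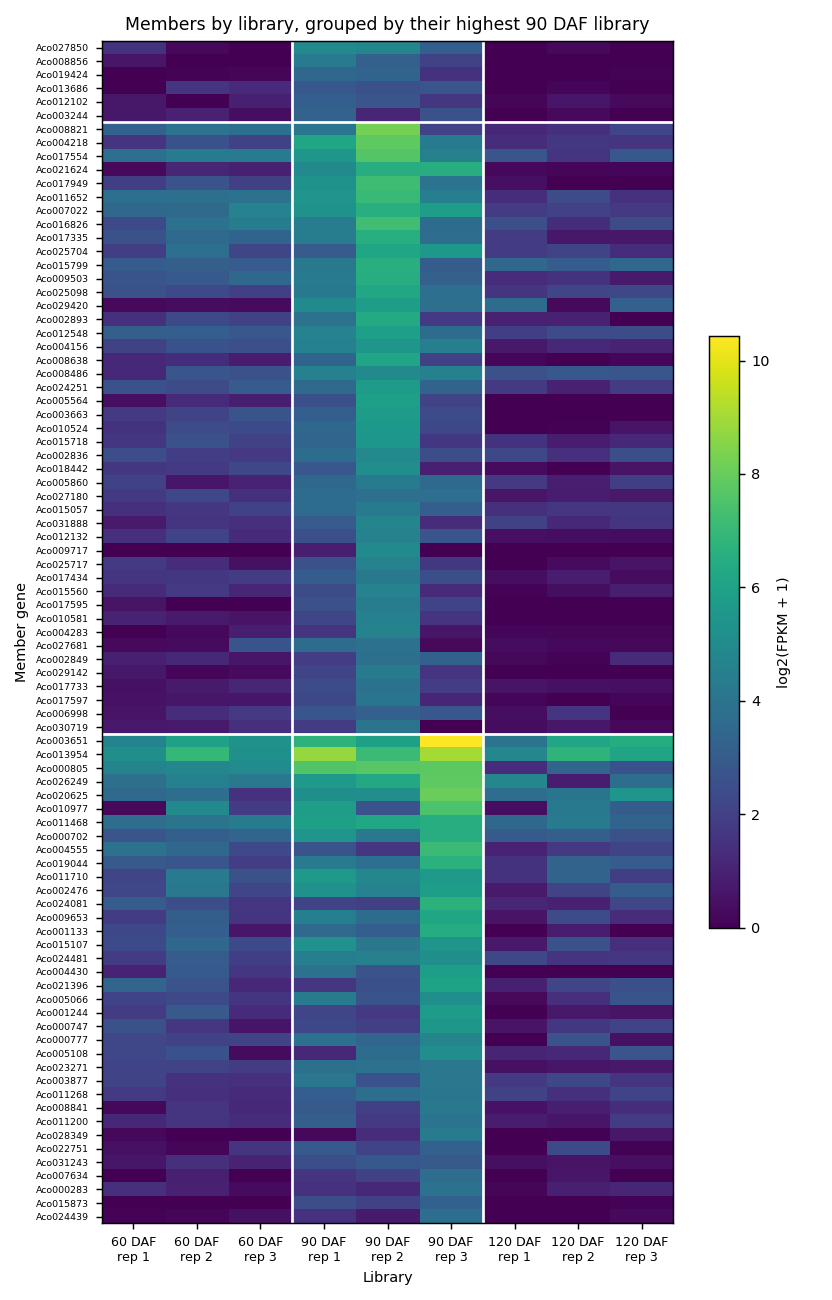
Level of each of the 87 genes (rows) in the 9 libraries (columns) as log2(FPKM + 1), with genes grouped by the 90 DAF library in which they were highest (6 in replicate 1, 45 in replicate 2, 36 in replicate 3). The middle block of rows is brightest in replicate 2 of 90 DAF and the lower block in replicate 3, while the 60 and 120 DAF columns are dark in most rows.

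The peak was shared unevenly by the 3 libraries of 90 DAF. Replicate 2 was the highest of them for 45 genes (51.7%), replicate 3 for 36 (41.4%) and replicate 1 for 6 (6.90%). Over all 16791 genes tested the shares were 40.7, 27.2 and 32.0% in the same order. The 68 genes with a KEGG ortholog that met the same thresholds split as 38, 22 and 8. In the median gene of the 87 the highest library held 69.4% of the 90 DAF sum, compared with 43.0% over the genes tested and 72.6% in the 68. A share over 75%, a limit set after the values were seen, was found in 32 of the 87 genes. Each 90 DAF library taken alone reached 4 times both other means in 47 (replicate 1), 60 (replicate 2) and 50 genes (replicate 3). All 3 libraries did so in 17 genes, 2 libraries in 36 and 1 library in 34. All 3 libraries of 90 DAF lay above the other 6 in 54 genes, 62.1%, where 7.12% of the genes tested showed that order and 33 of the 68 genes with a KEGG ortholog. As the thresholds select for this order, nothing is read from the difference.

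The genes highest in replicate 2 had a median level of 10.6, 41.9 and 5.65 FPKM in replicates 1, 2 and 3 of 90 DAF. Those highest in replicate 3 had medians of 13.7, 6.91 and 46.9 FPKM. The order at 90 DAF was thus opposite for replicates 2 and 3 by construction, with replicate 1 between them in both sets. In libraries that the grouping did not use, the 36 genes highest in replicate 3 had medians of 3.48, 5.61 and 2.04 FPKM at 60 DAF, and 11, 20 and 5 of them were highest in replicates 1, 2 and 3 of that age, against 30.2, 32.2 and 37.6% of genes tested. At 120 DAF their medians were 0.673, 2.11 and 2.71 FPKM, and 3, 16 and 17 of the 36 were highest in the respective replicates, against 30.3, 44.7 and 25.1% of genes tested. In these counts and shares, a gene at 0 in every library of an age was placed in replicate 1. This held for Aco015873 at 60 DAF and Aco004430 at 120 DAF. The 45 genes highest in replicate 2 had medians of 1.97, 2.78 and 2.94 FPKM at 60 DAF and 0.536, 0.710 and 0.633 FPKM at 120 DAF. Of the 45, 9, 21 and 15 were highest in replicates 1, 2 and 3 of 60 DAF, and 17, 12 and 16 in those of 120 DAF, so replicate 2 of 60 DAF was the most frequent highest library in both sets. The 9 include Aco009717, which had 0 counts at 60 DAF and was placed in replicate 1 in the same way. The 17 include Aco005564, Aco003663, Aco009717, Aco017595 and Aco029142, which had 0 counts in every library of 120 DAF. No lead of replicate 1 at 120 DAF is therefore read from the 17. The labels do not state whether libraries of the same number are related across ages, so nothing is read from a shared number.

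**Figure D2:**
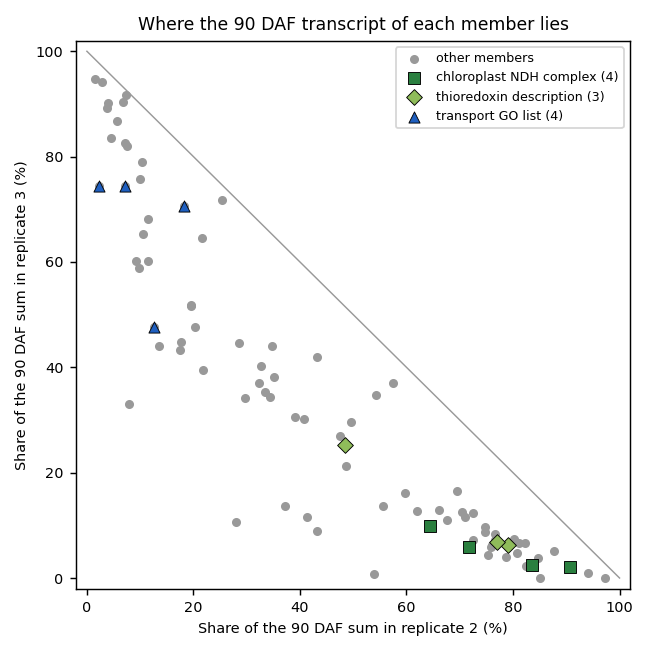
Each point is 1 of the 87 genes, placed by the share of its summed 90 DAF level that lies in replicate 2 (x axis, %) and in replicate 3 (y axis, %); the diagonal line marks a share of 0 in replicate 1. The 4 NDH complex genes and 3 thioredoxin genes lie to the lower right, towards replicate 2, and the 4 genes of the transport list to the upper left, towards replicate 3.

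Of the 13 genes with a product description, 9 were highest in replicate 2 of 90 DAF, among them all 4 whose description names the NDH complex or its electron flow. PnsB5 (Aco004218; contig 16, 625705 to 627661), a subunit of subcomplex B of the NDH complex in Arabidopsis, was measured at 2.09, 5.18 and 3.03 FPKM at 60 DAF, 71.3, 228 and 18.7 FPKM at 90 DAF and 1.49, 2.20 and 2.06 FPKM at 120 DAF. All of its 90 DAF values were above all others, with replicate 2 far above replicate 3. PnsB4 (Aco002893), of the same subcomplex, stood at 1.64, 3.93 and 3.12 FPKM at 60 DAF, 13.8, 83.03 and 2.46 FPKM at 90 DAF and 0.958, 0.956 and 0 FPKM at 120 DAF. Its replicate 3 of 90 DAF lay within the 60 DAF range, so the ages overlapped. PnsL4 (Aco002836), a subunit on the lumenal side annotated as a peptidyl-prolyl isomerase, stood at 4.50, 2.78 and 2.33 FPKM at 60 DAF, 11.7, 29.3 and 4.52 FPKM at 90 DAF and 3.76, 1.74 and 4.62 FPKM at 120 DAF, again with replicate 3 inside the range of the other ages. The gene described as NDH-dependent cyclic electron flow 1 (Aco004283) had 0, 0.166 and 0.825 FPKM at 60 DAF, 1.95, 24.3 and 0.562 FPKM at 90 DAF and 0.109, 0.0982 and 0.113 FPKM at 120 DAF. Almost all of its signal, 90.6% of the 90 DAF sum, came from replicate 2, and it did not pass the filter of 1 FPKM in 3 libraries.

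The list of the NDH complex was drawn up after these values were seen. It holds 6 genes of the table by description or GO term, 5 of them tested, and 4 are among the 87. All 6 had their highest 90 DAF value in replicate 2, as did 40.7% of all genes tested. The 2 genes outside the 87 had their highest mean at 90 DAF, as did 44.8% of all genes tested, with a smaller difference between the ages. PnsB1 (Aco008210) stood at 5.79, 4.98 and 6.68 FPKM at 60 DAF, 5.30, 22.2 and 3.21 FPKM at 90 DAF and 4.63, 4.43 and 2.97 FPKM at 120 DAF. Aco018317, in the complex by its GO term, stood at 8.64, 13.95 and 10.6 FPKM at 60 DAF, 19.6, 29.5 and 7.12 FPKM at 90 DAF and 11.8, 10.1 and 6.81 FPKM at 120 DAF. The antenna and photosystem sums were also highest in replicate 2 of 90 DAF, as given above, and their part in these values was not tested.

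Other plastid and electron transfer genes differed in how evenly they were spread. Aco017949, annotated for electron transfer and iron-sulfur cluster binding, stood at 2.82, 5.41 and 2.94 FPKM at 60 DAF, 40.3, 144 and 14.5 FPKM at 90 DAF and 0.352, 0 and 0 FPKM at 120 DAF. Its 90 DAF values were all above the rest, with replicate 2 highest, and at 120 DAF it was close to 0. Aco015718, placed by GO in the thylakoid membrane and in electron transport of photosystem I, had 2.17, 4.98 and 3.16 FPKM at 60 DAF, 9.59, 43.8 and 2.24 FPKM at 90 DAF and 1.89, 0.710 and 1.24 FPKM at 120 DAF. Aco011468, a GTP-binding protein annotated to the chloroplast and to translation, was spread evenly at 90 DAF, with 12.4, 15.2 and 18.5 FPKM at 60 DAF, 59.5, 72.05 and 88.9 FPKM at 90 DAF and 10.1, 18.5 and 9.36 FPKM at 120 DAF. Its lowest 90 DAF library was 3.21 times its highest other one. With PnsB5, PnsB4 and Aco015718 it makes up the 4 genes of the photosynthesis and plastid list, 8% of the 50 genes with a GO term, where the list takes 0.750% of the unassigned genes tested that have one. The chloroplastic fatty-acid-binding protein 3 (Aco025098), which binds fatty acids in the plastid in Arabidopsis, stood at 4.94, 3.94 and 2.95 FPKM at 60 DAF, 17.8, 73.3 and 12.9 FPKM at 90 DAF and 2.04, 3.52 and 3.74 FPKM at 120 DAF, without overlap. Pentatricopeptide repeat proteins bind organelle RNA, and the gene of this family named At5g10690 (Aco012132) had 1.67, 3.25 and 1.33 FPKM at 60 DAF, 4.76, 23.6 and 5.65 FPKM at 90 DAF and 0.347, 0.311 and 0.253 FPKM at 120 DAF.

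Thioredoxin-related genes formed the second described set. Thioredoxin-like 1-2 of the chloroplast (Aco004156) stood at 3.02, 5.16 and 4.81 FPKM at 60 DAF, 22.8, 41.9 and 21.9 FPKM at 90 DAF and 0.640, 1.27 and 1.08 FPKM at 120 DAF. It was spread more evenly than the NDH genes, since replicates 1 and 3 differed little and every 90 DAF value was over 4 times every other value. Thioredoxin domain 2 containing protein (Aco015799) had 7.23, 7.84 and 6.99 FPKM at 60 DAF, 17.4, 94.4 and 7.53 FPKM at 90 DAF and 9.90, 7.12 and 10.3 FPKM at 120 DAF. A thioredoxin superfamily protein annotated as an antioxidant (Aco009503) had 5.48, 6.61 and 10.1 FPKM at 60 DAF, 18.9, 90.4 and 8.06 FPKM at 90 DAF and 1.53, 1.88 and 0.695 FPKM at 120 DAF. In both, replicate 3 of 90 DAF lay within the range of the other ages, and replicate 2 stood far above all other libraries. Of 14 genes of the table whose description names thioredoxin, a list made after the values were seen, 12 were highest in replicate 2 at 90 DAF. Over all genes tested the share was 40.7%. There were 3 of the 14 among the 87. Of the other 11, 8 had their highest mean at 90 DAF (72.7%), against 44.8% of all genes tested.

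The redox list by GO term held 8 of the 87 genes, 16% of those with a GO term against 4.08% of the unassigned genes tested. Besides Aco015799, Aco009503 and Aco017949 it included Aco007022, annotated for calcium binding and NAD(P)H oxidation with oxygen as acceptor, at 10.6, 11.2 and 23.4 FPKM at 60 DAF, 39.8, 95.2 and 56.96 FPKM at 90 DAF and 2.53, 3.18 and 2.36 FPKM at 120 DAF. The ages did not overlap in that gene. Aco010581, annotated as a methyltransferase of lipid synthesis, stood at 0.978, 0.673 and 0.483 FPKM at 60 DAF, 3.50, 22.6 and 2.06 FPKM at 90 DAF and 0, 0 and 0.0135 FPKM at 120 DAF. Aco011710, annotated as a zinc metalloendopeptidase of the extracellular matrix, had no single high library at 90 DAF, at 3.54, 18.8 and 5.05 FPKM at 60 DAF, 48.02, 27.02 and 48.9 FPKM at 90 DAF and 1.76, 9.27 and 2.78 FPKM at 120 DAF. The other redox genes, Aco004555 and Aco024081, were carried by 1 library and are given further on.

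There were 3 channel genes among those highest in replicate 3. Aco013954, a membrane channel by its GO terms (contig 4, 978905 to 981762), stood at 35.3, 123 and 36.3 FPKM at 60 DAF, 435, 137 and 521 FPKM at 90 DAF and 27.2, 108 and 67.9 FPKM at 120 DAF. Its replicate 2 of 90 DAF was only a little above replicate 2 of 60 DAF and of 120 DAF, while replicates 1 and 3 were at least 3 times replicate 2. The aquaporin TIP1-3 gene (Aco010977), of the family that moves water across the vacuolar membrane and here also annotated for urea, had 0.206, 29.3 and 2.53 FPKM at 60 DAF, 54.7, 5.29 and 174 FPKM at 90 DAF and 0.308, 17.8 and 7.48 FPKM at 120 DAF. Replicate 2 of 60 DAF exceeded replicate 2 of 90 DAF in this gene, so the ages overlapped. Another channel gene, Aco004430, stood at 1.02, 6.65 and 2.13 FPKM at 60 DAF and 13.9, 5.40 and 55.96 at 90 DAF, with 0 counts in all libraries of 120 DAF. With 3 counts over the age as the floor for an age at 0, it was at least 805-fold higher at 90 DAF.

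The GO term channel activity, followed after these values were seen, is carried by 35 genes of the table, 26 of them tested. There were 32 outside the 87, and 9 of these (28.1%), all of them tested, had their highest mean at 90 DAF. The 32 also hold genes that did not pass the filter, some at 0 in every library, such as Aco011705, Aco012701 and Aco016357. The 28.1% is therefore not like for like with the 44.8% of all genes tested, and nothing is read from the difference. Among the 9 genes, Aco010251 stood at 285, 867 and 551 FPKM at 60 DAF, 1022, 630.4 and 1211 FPKM at 90 DAF and 77.7, 248 and 77.5 FPKM at 120 DAF. Aco014647 stood at 77.3, 225 and 114 FPKM at 60 DAF, 344, 205 and 505 FPKM at 90 DAF and 18.6, 32.9 and 12.9 FPKM at 120 DAF. Both had the same order of libraries within 60 DAF and within 90 DAF as Aco013954, with replicate 2 highest in the first and lowest in the second, but with less difference between the ages. Others had the opposite order at 90 DAF, with replicate 2 highest and replicate 3 lowest. Aco010390 stood at 173, 198 and 321 FPKM at 60 DAF, 210.4, 444 and 105 FPKM at 90 DAF and 38.4, 35.5 and 23.4 FPKM at 120 DAF, and Aco012014 at 122, 190.0 and 264 FPKM at 60 DAF, 204, 323 and 158 FPKM at 90 DAF and 38.9, 52.9 and 39.8 FPKM at 120 DAF. Over the 35 genes the highest 90 DAF library was replicate 1 in 11, replicate 2 in 6 and replicate 3 in 11, the rest having no value there. Over all genes tested the shares were 32.0, 40.7 and 27.2% in that order. The transport list takes genes with a general GO term for transport, transmembrane transport or transporter activity, or with ion transport in an integral membrane protein. It holds the 3 channel genes described and Aco007634. This gene, annotated as a calcium uniporter of the inner mitochondrial membrane and overlapped by another gene model on the same strand, had 0, 0.874 and 0 FPKM at 60 DAF, 1.96, 3.16 and 12.3 FPKM at 90 DAF and 0, 0.527 and 0 FPKM at 120 DAF. Aco002476, annotated for carbohydrate transport in the plasma membrane, not on the list because its term is more specific, and named after its values were seen, stood at 3.71, 17.03 and 3.48 FPKM at 60 DAF, 37.6, 23.8 and 55.7 FPKM at 90 DAF and 0.699, 3.43 and 7.49 FPKM at 120 DAF.

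**Figure D3:**
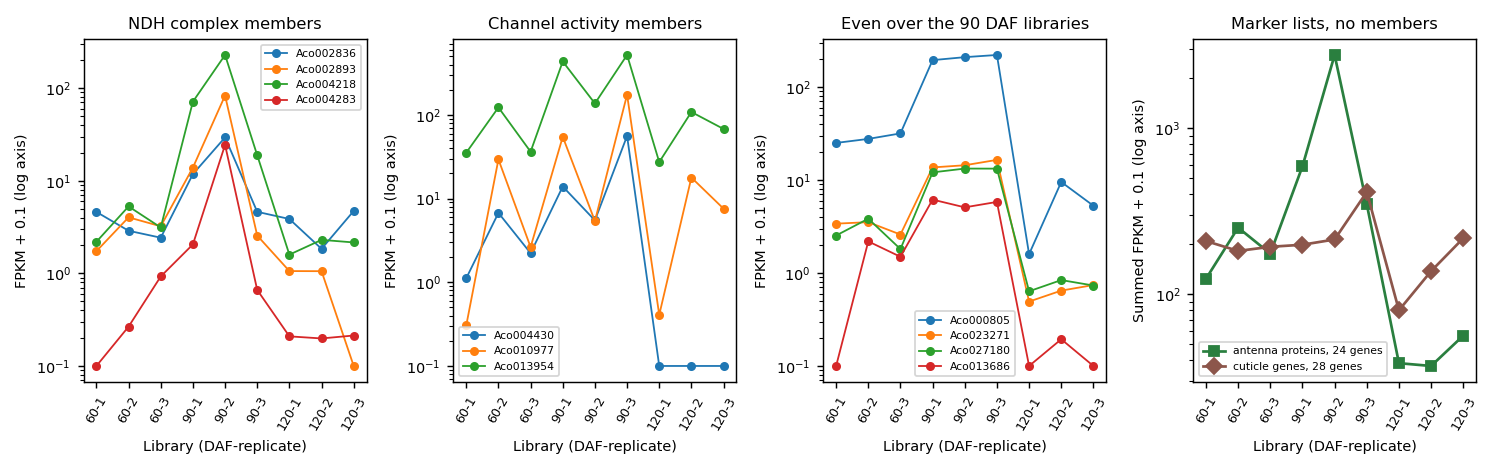
Levels by library on log axes: FPKM + 0.1 of the 4 NDH complex genes, the 3 channel genes and 4 genes chosen after their values were seen for their even 90 DAF levels, and the summed FPKM + 0.1 of 24 antenna and 28 cuticle genes. NDH genes and the antenna sum peak in replicate 2 of 90 DAF, the channel genes and the cuticle sum in replicate 3, and the even genes form a plateau over all 3 libraries.

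Few genes had a like level in all 3 libraries of 90 DAF. The fasciclin-like arabinogalactan protein 7 gene (Aco000805; contig 3, 16557343 to 16558459), one of a family of cell-surface glycoproteins, was the clearest: it stood at 24.9, 27.6 and 31.6 FPKM at 60 DAF, 194, 209 and 221 FPKM at 90 DAF and 1.49, 9.42 and 5.19 FPKM at 120 DAF. The mean went from 28.02 ± 3.35 to 208 ± 13.3 and then to 5.37 ± 3.96 FPKM (SD, n = 3), and its lowest 90 DAF library was 6.15 times the highest library of the other ages. Aco023271, an integral membrane protein by GO, had 3.29, 3.42 and 2.49 FPKM at 60 DAF, 13.5, 14.3 and 16.3 FPKM at 90 DAF and 0.393, 0.546 and 0.642 FPKM at 120 DAF. Aco027180, annotated for DNA binding and overlapped by another gene model on the same strand, had 2.43, 3.73 and 1.71 FPKM at 60 DAF, 11.97, 13.2 and 13.1 FPKM at 90 DAF and 0.536, 0.739 and 0.633 FPKM at 120 DAF. No age overlapped another in either gene. Aco013686, which has no annotation, stood at 0, 2.09 and 1.39 FPKM at 60 DAF, 6.05, 4.98 and 5.71 FPKM at 90 DAF and 0, 0.0938 and 0 FPKM at 120 DAF. The highest library held under 40% of the 90 DAF sum in 7 genes, these 4, Aco011710, Aco008486 and Aco031243. Aco031243, a membrane protein kinase by GO, had 0.568, 1.63 and 0.985 FPKM at 60 DAF, 4.74, 6.24 and 6.80 FPKM at 90 DAF and 0.356, 0.459 and 0.347 FPKM at 120 DAF. Aco008486 had 1.28, 5.90 and 4.95 FPKM at 60 DAF, 22.8, 29.5 and 23.1 FPKM at 90 DAF and 5.06, 6.34 and 5.94 FPKM at 120 DAF.

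The largest mean at 90 DAF rested on 1 library. Aco003651, an integral membrane protein by GO (contig 18, 4662476 to 4663777), stood at 25.2, 60.9 and 39.5 FPKM at 60 DAF, 106, 59.1 and 1374 FPKM at 90 DAF and 15.2, 69.2 and 86.5 FPKM at 120 DAF. Replicate 3 was over 10 times replicate 1, and replicate 2 lay below 1 library of 60 DAF and 2 of 120 DAF. Aco020625, without annotation, had 10.9, 12.7 and 1.80 FPKM at 60 DAF, 35.9, 34.5 and 265 FPKM at 90 DAF and 12.1, 15.8 and 42.4 FPKM at 120 DAF, again with replicate 3 high. Aco026249, annotated as a manganese-binding nutrient reservoir protein of the cell wall and apoplast, had 13.4, 22.8 and 17.3 FPKM at 60 DAF, 49.5, 76.6 and 229.6 FPKM at 90 DAF and 27.7, 0.710 and 12.6 FPKM at 120 DAF. All 90 DAF values of this gene were above the others, and replicate 2 of 120 DAF was close to 0. Aco008821, without annotation, was the counterpart in replicate 2, at 8.62, 14.6 and 13.5 FPKM at 60 DAF, 15.9, 300.2 and 3.24 FPKM at 90 DAF and 1.22, 1.63 and 3.57 FPKM at 120 DAF. Aco017554, an integral membrane protein, had 12.9, 18.2 and 19.2 FPKM at 60 DAF, 43.9, 198 and 23.1 FPKM at 90 DAF and 5.80, 1.95 and 6.41 FPKM at 120 DAF, without overlap although replicate 2 held 74.7% of the 90 DAF sum.

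**Figure D4:**
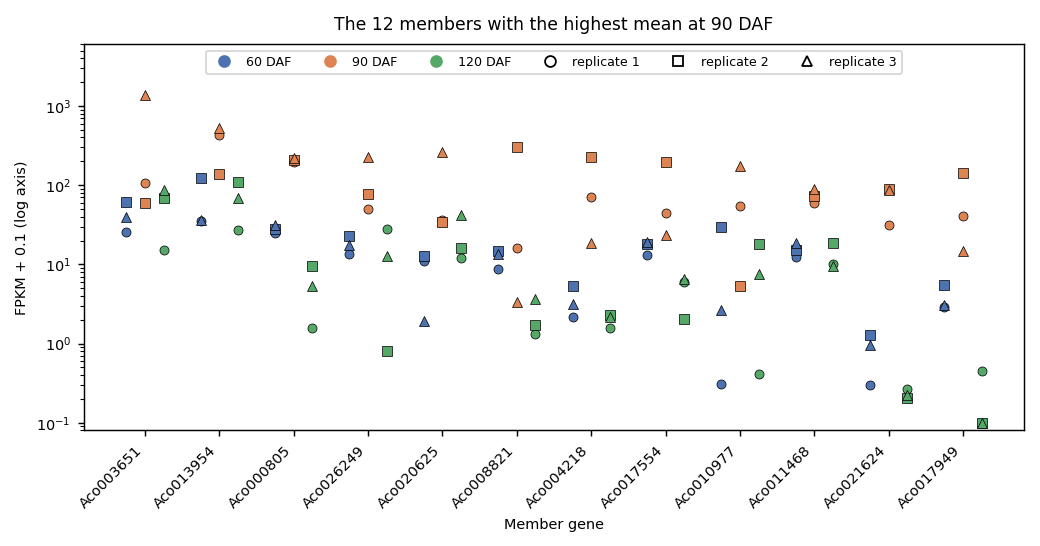
FPKM + 0.1 (log axis) of the 12 genes with the highest mean at 90 DAF, with colour for age and symbol for replicate. Aco000805 and Aco011468 show 3 close values at 90 DAF, whereas in Aco003651 and Aco008821 a single library lies far above the other 2.

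In 8 genes over 90% of the 90 DAF sum came from 1 library, replicate 3 in 5 of them and replicate 2 in 3. Aco004555, annotated for metal binding and oxidation-reduction in a membrane, stood at 13.7, 10.5 and 3.95 FPKM at 60 DAF, 5.36, 2.14 and 137 FPKM at 90 DAF and 1.02, 2.36 and 3.41 FPKM at 120 DAF. Aco024081, a peptide-methionine sulfoxide reductase by GO, which repairs oxidised methionine, had 7.29, 4.46 and 2.14 FPKM at 60 DAF, 3.37, 2.96 and 102 FPKM at 90 DAF and 1.18, 0.931 and 3.63 FPKM at 120 DAF. Aco021396, a potassium transporter by GO whose specific terms likewise leave it off the transport list, had 9.62, 5.35 and 1.31 FPKM at 60 DAF, 2.14, 4.88 and 65.5 FPKM at 90 DAF and 0.908, 3.57 and 4.92 FPKM at 120 DAF. In each of these, replicates 1 and 2 of 90 DAF lay within or below the range of 60 DAF. The last 2 were named after their values were seen, as was Aco001244, without annotation, at 2.52, 6.52 and 1.37 FPKM at 60 DAF, 3.49, 2.28 and 52.7 FPKM at 90 DAF and 0, 0.631 and 0.476 FPKM at 120 DAF. Leaving out the high library placed the 90 DAF mean below the larger of the other means in these 4 genes and in Aco008821.

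Several genes were nearly silent before and after the peak. Aco021624, without annotation (contig 8, 5157257 to 5160540), stood at 0.197, 1.17 and 0.862 FPKM at 60 DAF, 31.02, 90.4 and 87.96 FPKM at 90 DAF and 0.164, 0.106 and 0.123 FPKM at 120 DAF, a ratio of 82.8 to the larger of the other means. All 3 of its 90 DAF libraries were over 26 times its highest value elsewhere. Aco015873, annotated as a sequence-specific DNA-binding protein of the nucleus, had 0 counts at 60 DAF, 4.59, 3.13 and 8.34 FPKM at 90 DAF and 0, 0 and 0.0655 at 120 DAF, at least 233-fold higher at 90 than at 60 DAF by the same floor. Aco019424 stood at 0, 0.0815 and 0.118 FPKM at 60 DAF, 10.2, 9.20 and 1.91 FPKM at 90 DAF and 0, 0 and 0.0635 FPKM at 120 DAF. Aco027850 stood at 1.86, 0.167 and 0 FPKM at 60 DAF, 30.6, 26.9 and 7.59 FPKM at 90 DAF and 0, 0.158 and 0 FPKM at 120 DAF. Neither has an annotation, and both had their highest value in replicate 1. Aco008856, a hydrolase acting on ester bonds by GO, had 0.541, 0 and 0 FPKM at 60 DAF, 17.9, 8.18 and 3.11 at 90 DAF and 0 counts at 120 DAF, at least 572-fold lower than at 90 DAF. Aco009717, with the same 3 GO terms of carbohydrate binding and catalysis as Aco004283, had 0 counts at 60 and 120 DAF and 0.845, 31.1 and 0 FPKM at 90 DAF. It was at least 520-fold higher than at 60 DAF and 614-fold higher than at 120 DAF, but 97.4% of the signal lay in replicate 2. In all, 7 genes had 0 counts in every library of 120 DAF and 2 in every library of 60 DAF. The bounds of those 7 on the fold from 120 to 90 DAF ran from 163-fold to 1019.9-fold. Such floors cover counting error only.

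The remaining annotated genes were spread thinly over functions. Descriptions also named DRT100 (Aco000777), a leucine-rich repeat protein gene in Arabidopsis, at 3.69, 3.18 and 3.44 FPKM at 60 DAF, 14.4, 9.68 and 25.6 FPKM at 90 DAF and 0, 5.30 and 0.368 FPKM at 120 DAF. Gibberellin-regulated protein 9 (Aco003244), of a family of small cysteine-rich peptides, had 0.571, 0.943 and 0.294 FPKM at 60 DAF, 8.86, 1.19 and 4.96 FPKM at 90 DAF and 0, 0.190 and 0 FPKM at 120 DAF. The first was highest in replicate 3 and the second in replicate 1. The lipid list held Aco005066, annotated for lipid breakdown, at 3.32, 3.92 and 2.06 FPKM at 60 DAF, 18.2, 5.53 and 35.98 FPKM at 90 DAF and 0.203, 1.65 and 5.56 FPKM at 120 DAF. It also held Aco011200, at 1.28, 1.94 and 1.57 FPKM at 60 DAF, 7.92, 2.46 and 14.8 FPKM at 90 DAF and 0.789, 0.550 and 2.63 FPKM at 120 DAF. In both, replicate 3 of 90 DAF was highest. The metalloendopeptidase gene Aco002849 had 0.911, 1.24 and 0.565 FPKM at 60 DAF, 2.71, 13.3 and 8.53 FPKM at 90 DAF and 0.160, 0.0638 and 1.43 FPKM at 120 DAF. Aco015107, a nuclear DNA-binding protein by GO, had 4.06, 10.6 and 4.03 FPKM at 60 DAF, 37.4, 16.8 and 41.4 FPKM at 90 DAF and 0.647, 4.97 and 1.66 FPKM at 120 DAF, without overlap. The kinase gene Aco024439, the weakest of the 87, had 0.0828, 0.0907 and 0.366 FPKM at 60 DAF, 1.78, 0.673 and 12.5 FPKM at 90 DAF and 0, 0 and 0.215 FPKM at 120 DAF. The photosynthesis and plastid list was given above. The other lists with 2 to 5 genes were those of nucleic acid binding (3, or 6% of genes with a GO term, against 11.3% of unassigned genes tested with one), metal and calcium binding (5, 10% against 10.1%), protein kinases (2, 4% against 7.15%), peptidases and their inhibitors (2, 4% against 3.35%), carbohydrate and wall (3, 6% against 1.23%), lipid (2, 4% against 1.19%), protein binding (3, 6% against 19.6%) and transport (4, 8% against 5.34%). The list of sugar and group transfer held 0. Of the 3 carbohydrate and wall genes, Aco004283 is the NDH-dependent gene given above and Aco009717 carries the same GO terms. Neither of them passed the filter for genes tested, nor did the kinase gene Aco024439. Integral membrane proteins numbered 20, 40% against 29.6%. Of the 87 genes, 35 had neither a GO term nor a description. The gene models of the 87 had a median span of 1682 bases (137 to 31288), against 3421 for all genes tested, with or without a KEGG ortholog. The median span of the unassigned genes tested is not given here.

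The choice of the genes did not ask for a difference between 60 and 120 DAF, but it used both means. The 90 DAF mean had to be at least 4 times each of them. A 60 DAF mean of 5 FPKM or more also had to be under 8 times the 120 DAF mean. The fit shares its estimate of spread with the 90 DAF libraries as well, so the counts stand beside all genes as a description. In the comparison of 120 with 60 DAF, edgeR's quasi-likelihood test called 9 of the 83 genes tested lower at 120 DAF and 1 higher. Benjamini-Hochberg adjustment ran over all 16791 genes, at 0.05. Over all genes 5.22% were called lower and 4.25% higher. At an unadjusted p under 0.05, 22 were lower, beside 13.7% of all genes tested, and 1 was higher, beside 13.2%. DESeq2 called 21 lower, beside 10.9% of all genes, and 1 higher, beside 9.36%. The median log2 fold change of the 83 was -1.10, also with the 6 genes at 0 counts at 120 DAF placed at their bound, against -0.01 over all genes tested, and 64 of the 83 were below 0. On the FPKM scale, without TMM scaling, the median over all genes moved by -0.29, and the median log2 ratio of the 87 was -1.06. Leaving out 1 library brought the number called to between 1 and 17: it was 1 without replicate 3 of 120 DAF, 2 without replicate 1 of 120 DAF or replicate 2 of 60 DAF, 3 without replicate 3 and 5 without replicate 1 of 60 DAF, 6 without replicate 1 of 90 DAF or replicate 2 of 120 DAF, and 17 without replicate 2 of 90 DAF.

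Aco023271, the membrane protein with even levels, fell by 2.21 on the log2 scale from 60 to 120 DAF (SE 0.30, edgeR adjusted p = 0.00783), and it was called under all 17 alternatives, with an adjusted p of at most 0.0326. The calcium-binding oxidase gene Aco007022 changed by -2.20 ± 0.40 (SE, edgeR adjusted p = 0.0177), a call lost without replicate 1 or replicate 3 of 120 DAF. The chloroplastic thioredoxin-like gene Aco004156 changed by -1.81 ± 0.36 (adjusted p = 0.0233), lost on leaving out replicate 2 or 3 of 60 DAF or replicate 1 or 3 of 120 DAF. The fasciclin-like gene Aco000805 changed by -2.12 ± 0.52 (edgeR adjusted p = 0.0421; the call was lost in 8 of 17 alternatives). Aco027180 changed by -1.72 ± 0.36 (adjusted p = 0.0262, lost in 6 of 17) and Aco017434, a membrane-bound peptidyl-prolyl isomerase by GO, by -2.10 ± 0.53 (adjusted p = 0.0441, lost in 8 of 16). These 6 genes were at means of 0.432 to 5.37 FPKM at 120 DAF.

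In 3 called genes the 120 DAF level was at or near 0, and the fitted fold is not given for them. The channel gene Aco004430 had 293 counts over 60 DAF and 0 over 120 DAF, at least 115-fold lower (edgeR adjusted p = 0.0403). Aco003663, an integral membrane protein, stood at 2.39, 3.43 and 5.51 FPKM at 60 DAF and 7.73, 51.5 and 4.19 at 90 DAF, and had 99 counts over 60 DAF and 0 over 120 DAF, at least 38.9-fold lower (adjusted p = 0.0416). Both calls were lost in 9 of 17 alternatives. The methyltransferase gene Aco010581 had the level given above (adjusted p = 0.0247, lost in 7 of 16). The single gene called higher, Aco029420, without annotation and overlapped by another gene model on the same strand, stood at 0.217, 0.254 and 0.253 FPKM at 60 DAF, 30.7, 55.3 and 13.6 FPKM at 90 DAF and 11.8, 0.205 and 8.15 FPKM at 120 DAF, with a log2 fold change of 4.79 ± 1.22 from 60 to 120 DAF (adjusted p = 0.0462, lost in 11 of 17). Its replicate 2 of 120 DAF was at the level of 60 DAF, and the other two were far above it.

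For 90 DAF against the other ages, edgeR called 9 of 83 higher at 90 than at 60 DAF, beside 0.322% of all genes tested (54), and 54 of 83 higher at 90 than at 120 DAF, beside 9.17% (1540). As these contrasts chose the genes, nothing is read from the counts. The first fell to 0 when any library of 60 DAF or replicate 3 of 120 DAF was left out, to 1 without replicate 1 of 90 DAF, to 3 without its replicate 3 and to 4 without replicate 1 of 120 DAF. The second fell to 25 without replicate 1 and to 29 without replicate 3 of 120 DAF. DESeq2 called 50 higher than at 60 DAF, beside 4.21% of all genes tested, and 65 higher than at 120 DAF, beside 15.1%. At an unadjusted p under 0.05 edgeR had 64, beside 8.68%, and 75, beside 17.7%.

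Without replicate 2 of 90 DAF, 87 unassigned genes met the rule, but 51 of them were among the original 87, and without replicate 3 the numbers were 105 and 60. Without replicate 1 of 90 DAF, the highest of its age in only 6 of these genes, 143 genes met it, 82 of them from the original set. Leaving out a library of another age kept 79 to 85 of the 87. With the median of each age in place of the mean, 58 genes met the rule and 40 of them were from the original set. There were 20 genes that met it in all 9 omissions, among them PnsB5, thioredoxin-like 1-2, the channel gene Aco013954, Aco011468, Aco017949, Aco021624, Aco023271 and Aco027180.

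**Figure D5:**
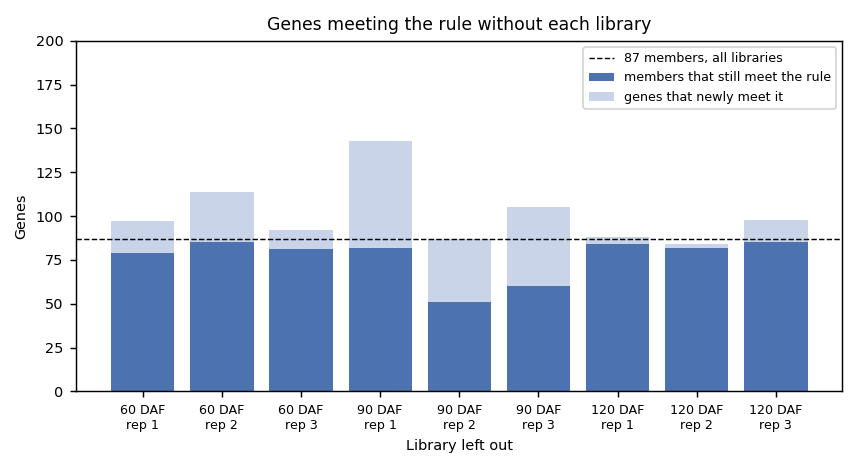
Number of unassigned genes that meet the rule when each library is left out, split into the original genes (dark) and genes that newly meet it (light), with a dashed line at 87. The dark part is smallest without replicate 2 (51) and replicate 3 (60) of 90 DAF, and the light part is largest without replicate 1 of 90 DAF.

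The genes nearest to the fold threshold are given as a description. Just inside were Aco017434 with a ratio of 4.18, Aco022751 with 4.21 and Aco007022 with 4.23. Aco017434 had 1.97, 2.25 and 2.59 FPKM at 60 DAF, 7.14, 17.6 and 4.73 FPKM at 90 DAF and 0.304, 0.716 and 0.277 FPKM at 120 DAF. Aco022751 stood at 0.399, 0.147 and 2.02 FPKM at 60 DAF, 6.82, 3.23 and 8.15 FPKM at 90 DAF and 0, 4.04 and 0.0538 FPKM at 120 DAF, so 1 library of 120 DAF exceeded replicate 2 of 90 DAF. Just outside, Aco006454 had a ratio of 3.98, at 4.03, 2.26 and 3.71 FPKM at 60 DAF, 12.6, 21.04 and 7.00 FPKM at 90 DAF and 1.87, 0.249 and 0.490 FPKM at 120 DAF. Aco027894 (3.97) had 22.9, 14.6 and 10.04 FPKM at 60 DAF, 14.3, 13.8 and 162 FPKM at 90 DAF and 7.02, 15.05 and 22.9 FPKM at 120 DAF. Aco025472 (3.97) had 2.01, 6.96 and 0.777 FPKM at 60 DAF, 1.29, 0.551 and 37.8 FPKM at 90 DAF and 0.752, 0.244 and 1.41 FPKM at 120 DAF. The last pair had a single high library, replicate 3 of 90 DAF, as many of the 87 did.

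The 3 most highly expressed genes were set against all genes tested by the Pearson correlation of log2(FPKM + 1) over the 9 libraries, which share depth and the high libraries named above. For Aco003651 the nearest were Aco011040 (r = 0.961), Aco013674 (0.960) and Aco018394 (0.959). For the channel gene Aco013954 they were Aco011851 (0.974), Aco003991 (0.971) and Aco010027 (0.968). For the fasciclin-like gene Aco000805 they were Aco000955 (0.988), Aco008639 (0.987) and Aco025250 (0.981). None of these 9 was among the 87. The means were, for example, 8.61, 18.6 and 5.18 FPKM at 60, 90 and 120 DAF in Aco008639.

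The 87 genes lay on 22 of the 25 contigs, and no gene was followed directly by another of them in contig order. With a limit of 20000 bases, set after the values were seen, 2 pairs lay close together. Aco017595 and Aco017597 were 25 bases apart. The first had 0.460, 0 and 0 FPKM at 60 DAF, 5.04, 20.6 and 3.37 FPKM at 90 DAF and 0, 0 and 0 FPKM at 120 DAF. The second had 0.434, 0.564 and 0.552 FPKM at 60 DAF, 3.74, 15.5 and 1.20 FPKM at 90 DAF and 0.146, 0 and 0.117 FPKM at 120 DAF. Their levels followed each other over the libraries (r = 0.994 over 9 libraries), and other gene models overlap both, so reads could have been divided among them. Aco024251 and Aco007634 were 11590 bases apart, and their levels did not (r = 0.202).

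Overlapping gene models touched 23 of the 87, with 14 on the same strand and 10 on the opposite strand (1 had both). Whether counting used strand is not stated, so reads of overlapping genes cannot be told apart. Partners reached 1 FPKM in some library in 7 cases on the same strand and in 3 on the opposite strand. Aco013641 overlaps Aco027180 on the same strand by 605 bases and had a like pattern. It stood at 11.3, 17.1 and 20.8 FPKM at 60 DAF and 42.6, 49.01 and 58.5 FPKM at 90 DAF. At 120 DAF it stood at 1.86, 5.10 and 2.29 FPKM. Aco021712, over Aco029420 on the same strand, stood at 28.7, 32.2 and 30.9 FPKM at 60 DAF, 43.7, 79.3 and 28.9 FPKM at 90 DAF and 22.5, 21.1 and 18.6 FPKM at 120 DAF. Aco013181, over Aco025704, was highest in replicate 1 of 90 DAF (92.1, 12.3 and 11.3 FPKM at that age), whereas Aco025704 had 6.98, 71.2 and 45.8. Aco028726 contains the 137 bases of Aco027681 and stood at 41.6, 50.2 and 34.1 FPKM at 90 DAF, against 11.9, 14.2 and 0.195 in Aco027681. Aco024247 overlaps the uniporter gene Aco007634 by 3021 bases and stood at 2.09, 2.57 and 2.61 FPKM at 60 DAF, 2.28, 1.42 and 9.72 FPKM at 90 DAF and 1.38, 0.137 and 2.17 FPKM at 120 DAF, so both were highest in replicate 3 of 90 DAF. Aco010592, over Aco025717, had 8.86, 3.83 and 5.57 FPKM at 90 DAF, and Aco024631, over Aco029142, had 0.904, 3.82 and 0.626 FPKM. On the opposite strand the partners of Aco025098, Aco013686 and Aco030719 reached 3.22, 2.03 and 2.19 FPKM in their highest library. The values of these 10 genes are uncertain to that extent.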

How the data were processed

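The deposited table holds whole-number counts per gene and the authors' FPKM values, per the file headers. Bowtie 0.12.2, HISAT2 2.0 and StringTie 1.3.0 are named, per the submitters' processing notes. For what each was used, on which genome build and with which strand setting is not given in the sources used here. All 65846 FPKM values at count 0 are written as 0.0001 in the deposited table and were set to 0. Contigs and positions are those of the table. No identifier matched the RefSeq table at hand (0), so no sequence is shown. Reads of near-identical copies could have been split between them.

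The genes, lists, rule for named genes and alternatives were chosen with earlier results of these data known. The edgeR quasi-likelihood test (4.0.16, R 4.3.3) ran on the counts with TMM scaling in 1 model of all 9 libraries, with 6 residual degrees of freedom. It covered the 16791 genes that reached 1 FPKM in 3 or more libraries (83 of the 87), and Benjamini-Hochberg adjustment ran over all of them. A standard error is the log2 fold change divided by the square root of F. FPKM values carry no TMM scaling; the TMM factors ran from 0.849 to 1.148. The edgeR and limma fits were run on simulated counts with the same dispersion in every gene. That check does not cover genes carried by a single high library. DESeq2 1.42.0 and limma 3.58.1 served as alternatives, with pandas 2.3.3, matplotlib 3.10.9 and Python 3.11.15.

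The text names the 12 genes with the highest 90 DAF mean, the 8 with the largest ratio, those with a description, the top 3 of each GO list, 3 on each side of the threshold, up to 6 called each way for 120 against 60 DAF and the nearest genes of the top 3. Others it names were chosen after their values were seen.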

Additional observations from a re-analysis of the deposited data

How the results depend on the processing

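The number of genes meeting the rule was 167 at 3 times and 43 at 6 times the other means; an offset of 1 (71), a minimum of 10 FPKM (61), TMM-scaled FPKM (81) and medians (58) stayed within 1.5 times of 87, and leaving out a library gave 84 to 143. In what follows the count over all genes tested, in both directions, stands after "of". Calls of 90 over 60 DAF (9 of 132) numbered 50 of 1437 with DESeq2, 20 of 293 with limma on log2(FPKM + 1), 19 of 209 with limma on log2(FPKM + 0.1), 5 of 54 with only the compared ages in the fit, and 0 to 12 (0 to 276 over all genes) on leaving out a library. Calls of 90 over 120 DAF (54 of 2915) numbered 33 of 2364 with a filter of 5 FPKM, which 49 of the 87 passed, 29 of 1215 with only the compared ages, and 25 to 53 (1094 to 3164) on leaving out a library. Calls of 120 against 60 DAF (10 of 1590) numbered 22 of 3393 by DESeq2, 6 of 2067 by limma on log2(FPKM + 1), and 1 to 17 (392 to 2452) on leaving out a library. All other planned settings except the replicate block moved these 3 counts by at most 1.5 times. With the replicate number as a block the 3 counts were 2 of 10, 37 of 1970 and 7 of 995. Same-numbered libraries correlated from -0.42 to 0.48 in their deviations, over 0.1 in 3 of 9 pairs, and 4 of 18 correlated best with their own number. So few values cannot show whether libraries of the same number are related, and the labels do not say. TMM-scaled FPKM gave 53 genes without overlap against 54, and 5, 43 and 39 genes highest in replicates 1, 2 and 3.

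The log2 ratio of 90 DAF to the larger other mean, followed after the data were seen, turned negative in 5 genes. Over the omissions of single libraries it ran from -0.35 to 3.68 for Aco008821, lowest without replicate 2 of 90 DAF. Without replicate 3 the others were lowest, the range being -1.31 to 2.91 for Aco004555, -0.54 to 3.47 for Aco024081, -0.61 to 2.82 for Aco021396 and -0.26 to 3.26 for Aco001244. With medians it was -0.96 for Aco004555, -0.39 for Aco024081 and -0.13 for Aco021396. The cause was not tested. For the 10 genes called for 120 against 60 DAF, no alternative turned the direction; 64 of their values lost the call and 104 kept it. Depth limits the fold to a bound where an age had 0 counts.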
